A study of Mus musculus with 57 samples.

Results

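The 32 genes described here encode the enzymes, carriers and regulators of hepatic fatty acid oxidation together with 1 enzyme of ketone body metabolism. They were taken by symbol from a table of 54307 mouse genes measured in 57 livers, and all 32 were found, each as a single row. The rule that lists them uses no measured value. By role they comprise the regulator Ppara, 5 genes of fatty acid activation and the carnitine shuttle, 8 of the mitochondrial β-oxidation spiral and 5 of its auxiliary enzymes and electron carriers. The others are Ech1, 6 peroxisomal enzymes, 3 acyl-CoA thioesterases, Bdh1 of ketone body metabolism, and Pdk4 and Vnn1, which respond to PPAR alpha outside the spiral.

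Fatty acids entering a hepatocyte are joined to coenzyme A, carried into mitochondria as carnitine esters and shortened there by repeated rounds of dehydrogenation, hydration, oxidation and thiolysis. Very long and branched chains are first shortened in peroxisomes by a parallel set of enzymes. In fasting, the acetyl-CoA that results is turned into ketone bodies for export, and the nuclear receptor PPAR alpha, bound by fatty acids, raises the transcription of many genes of both organelles.

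All mice were wild-type C57BL/6JJcl males, 6 weeks old and acclimatised for 1 week, and all, controls included, had been fasted for 12 h before dosing. Livers were perfused and sampled 24 h after dosing. By gavage, 4 mice received ANIT (alpha-naphthyl isothiocyanate, a toxicant of bile duct cells), 6 received APAP (acetaminophen), 7 received MDA (4,4'-methylene dianiline) and 5 received TAA (thioacetamide). Intraperitoneally, 7 mice were given CCl4 (carbon tetrachloride) and 4 were given GAL (galactosamine). ConA (concanavalin A, a lectin that activates T cells) went into the tail vein of 7 mice. Vehicle controls were 13 gavage mice given 0.5% methylcellulose (Ctrl), 2 mice given saline intraperitoneally (CIP) and 2 given it intravenously (CIV). Corn oil is named among the vehicles without its compound, and no control mouse was given it, so the effect of that vehicle and of the compound in it cannot be told apart. The doses of the compounds are not given in the labels.

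Total estimated counts per library ran from 13826343 to 35075809, and transcripts of the mitochondrial genome made up 5.11% to 39.3% of them. Hepatocyte markers were abundant in every group: Alb, Apoa1, Ttr, Serpina1c, Hnf4a and Cps1 together gave at least 50479.6 CPM in each gavage control and at least 19507 CPM in every treated mouse. Levels are in CPM, estimated counts brought to 1 common library size with TMM factors from the 57 libraries. Changes are log2 fold changes ± SE from edgeR's quasi-likelihood test of a compound against the vehicle of its route, and a gene is called where the Benjamini-Hochberg adjusted p over all genes tested is under 0.05. In a whole liver, fewer cells of a type and less RNA per cell cannot be told apart.

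Promoter sequences are shown for a pair of genes with 1 shared promoter, for 2 neighbouring thioesterase genes and for 2 genes that rose with TAA and ConA, so that the values can be read beside the DNA they belong to. They come from RefSeq on build GRCm38.p6, are written 5′ to 3′ on the gene's strand, and are cut where annotated transcribed bases begin. Hadha and Hadhb, the subunits of the mitochondrial trifunctional protein, are transcribed away from each other, and the 85 bases between them are given on the plus strand (chr5:30155163-30155247). Acot1 (chr12:84009252-84009489, plus strand) and Acot2 (chr12:83987611-83987860, plus strand) are neighbouring thioesterase genes. Ehhadh (chr16:21787835-21788084, minus strand) and Pdk4 (chr6:5496310-5496528, minus strand) rose with TAA and ConA. Capitals mark CCAAT and GGGCGG, the CCAAT box and the GC box, on either strand.
Hadha-Hadhb: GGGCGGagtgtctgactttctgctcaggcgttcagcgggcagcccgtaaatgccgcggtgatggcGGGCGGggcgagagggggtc
Acot1: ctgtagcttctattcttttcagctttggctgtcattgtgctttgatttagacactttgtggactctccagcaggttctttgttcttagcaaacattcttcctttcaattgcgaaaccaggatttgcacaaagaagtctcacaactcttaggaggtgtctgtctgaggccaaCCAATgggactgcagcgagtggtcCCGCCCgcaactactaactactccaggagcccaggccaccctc
Acot2: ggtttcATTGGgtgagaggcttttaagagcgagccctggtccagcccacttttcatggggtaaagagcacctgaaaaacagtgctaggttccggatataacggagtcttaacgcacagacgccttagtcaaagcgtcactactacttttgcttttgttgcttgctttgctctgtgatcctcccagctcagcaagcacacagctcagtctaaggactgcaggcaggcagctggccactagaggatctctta
Ehhadh: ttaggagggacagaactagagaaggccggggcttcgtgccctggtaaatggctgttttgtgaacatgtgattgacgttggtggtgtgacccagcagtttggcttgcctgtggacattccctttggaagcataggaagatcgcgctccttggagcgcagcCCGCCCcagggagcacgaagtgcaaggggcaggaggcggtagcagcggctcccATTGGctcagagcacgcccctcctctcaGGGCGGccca
Pdk4: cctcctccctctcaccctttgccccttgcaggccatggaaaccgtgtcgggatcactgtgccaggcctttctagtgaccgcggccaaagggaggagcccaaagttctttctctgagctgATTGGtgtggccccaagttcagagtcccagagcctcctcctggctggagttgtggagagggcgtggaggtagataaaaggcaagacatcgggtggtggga

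Of the 32 genes, 27 had a promoter window in the RefSeq table, reaching from 250 bases before to 50 after the start. GGGCGG was found on either strand in 20 of the 27 windows (74.1%), against 35.7% of all 32851 windows, and CCAAT in 14 (51.9%) against 37.4%. A direct repeat, 2 copies of AGGNCA with 1 base of any kind between them, is the form of element that PPAR alpha binds with its partner RXR. It was found in 0 of the 27 windows and in 0.381% of all windows. AGGTCA, which can lie within such a repeat, was found in 4 windows (14.8%) against 16.3%. A match is a description of the letters, and elements outside these windows were not searched.

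Every one of the 32 genes passed the filter on low values in each comparison with a route vehicle, and every one was called with at least 1 compound. With CCl4, 25 genes fell and 1 rose, where 33.5% of all genes tested were called, 15.6% lower and 18.0% higher. GAL lowered 18 and raised 2 (28.5% of all genes called, 15.7% lower and 12.8% higher), and APAP lowered 21 and raised 3 (31.8%, 14.6% lower and 17.3% higher). With MDA, 10 fell and 4 rose (33.8%, 16.4% lower and 17.4% higher). TAA raised 9 and lowered 7 (50.5%, 26.4% higher and 24.0% lower), so that 16 of 32 called is near the share of all genes. ConA raised 5 and lowered 6 (34.2%, 16.8% higher and 17.3% lower), also near the share of all genes. ANIT raised 12 and lowered 2 (28.2%, 14.0% higher and 14.2% lower). The median change of the 32 genes was −1.15 with CCl4, −0.95 with GAL, −0.49 with APAP, −0.17 with MDA, −0.11 with ConA, −0.01 with TAA and 0.32 with ANIT, while the median of all genes lay between −0.01 and 0.10. Fatty acid oxidation genes were therefore mostly lower with CCl4, GAL and APAP, mostly higher among the calls with ANIT, and divided with TAA and ConA.

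**Figure D1:**
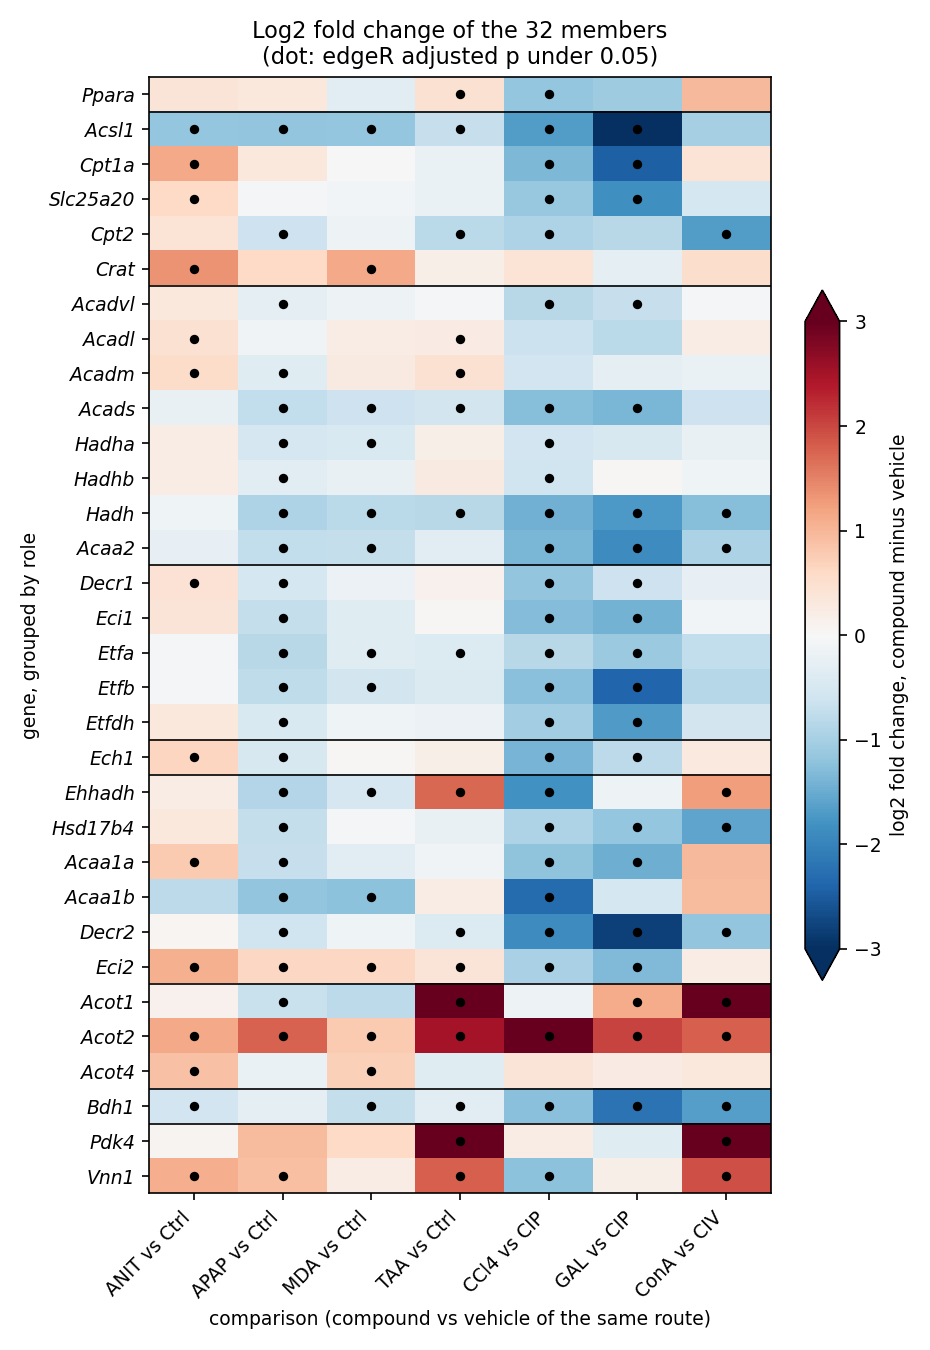
Log2 fold change of each of the 32 genes (rows, by role) for each compound against the vehicle of its route (columns), with called changes marked. The CCl4, GAL and APAP columns are mostly below 0, Acot2 is above 0 in all 7 columns, and Acot1, Pdk4, Ehhadh and Vnn1 are above 0 with TAA and ConA.

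Some of these counts rested on single libraries or on the scaling. Without ANIT mouse 1, whose levels of most of these genes were the lowest of its group, 20 genes rose and 2 fell (13.5% of all genes higher and 13.9% lower in the same fit). Without ANIT mouse 4, 7 rose and 2 fell (11.8% and 11.7% of all genes). Without MDA mouse 1, 5 rose and 17 fell (17.8% and 17.0%), and without TAA mouse 1, 8 rose and 14 fell (26.2% and 24.7%). Without CIP mouse 7 GAL raised 2 and lowered 8 (4.61% and 6.15% of all genes), and without CIP mouse 8 it raised 0 and lowered 9 (2.72% and 6.77%). Without CIV mouse 7 ConA raised 3 and lowered 2 (12.3% and 11.6%). Scaling by library totals instead of TMM shifted the median of all genes by −0.22 with ANIT, 0.16 with APAP, 0.43 with CCl4, 0.76 with GAL and −0.59 with ConA. The split of higher to lower calls then became 4 to 3 with ANIT (5.84% of all genes higher and 18.8% lower) and 5 to 11 with APAP (21.1% and 7.98%). It became 2 to 6 with GAL (35.6% and 5.44%) and 3 to 12 with ConA (7.79% and 26.5%).

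Single calls that rested on 1 mouse were the following, apart from those given with each gene. With GAL, Eci1 was lost without CIP mouse 8, Etfa and Etfdh without CIP mouse 7, and Acadvl, Hsd17b4 and Decr1 without either CIP mouse or without GAL mouse 4, 7 or 8. With CCl4, Hadha, Hadhb, Etfa and Etfdh were lost without CIP mouse 7, Hadhb and Etfa without CCl4 mouse 5, and Etfa without CCl4 mouse 6. With ConA, Acaa2 and Hsd17b4 were lost without CIV mouse 7. With APAP, Hadhb, Etfdh and Decr2 were lost without mouse 8, and Acadvl without mouse 1, 2, 4 or 11. Etfa was lost with MDA without mouse 4, 7 or 12 and with TAA without mouse 3, 7 or 8, and Decr2 with TAA without mouse 6, 7 or 8.

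Cell markers moved in the same comparisons. All 6 hepatocyte markers fell with CCl4 and 5 of 6 with GAL, and their summed level was 19507 to 29683 CPM with CCl4 and 25139.9 to 33212.5 CPM with GAL, against 54766 and 60714 CPM in the CIP mice. Of 5 markers of pericentral hepatocytes, the cells around the central vein, 4 fell with APAP, with CCl4 and with GAL, 3 with MDA and with TAA, and 1 with ANIT and with ConA. Of 5 periportal markers, 5 fell with CCl4, 4 with GAL and with TAA, 3 with APAP and with ConA, and 2 with ANIT and with MDA, while 1 rose with ANIT, MDA, TAA and ConA. All 5 Kupffer cell markers fell with ConA, where their summed level was 22.9 to 49.8 CPM against 277 and 279.7 CPM in CIV. Neutrophil markers rose with TAA (5 of 5, summed level 157 to 813 CPM against 2.11 to 60.8 CPM in Ctrl) and with ConA (4 of 5, 126 to 287 CPM against 7.81 and 8.84 CPM in CIV), and 4 of the 4 that could be tested rose with GAL. Of 5 monocyte and macrophage markers, 4 rose with APAP (summed level 147 to 243 CPM against 45.03 to 132 CPM in Ctrl), 3 with TAA (138 to 219.9 CPM), 3 with GAL (179 to 276 CPM against 78.7 and 114 CPM in CIP), 2 with CCl4 (101 to 217 CPM), and 1 with MDA and with ConA, while 1 fell with ANIT and with ConA. Of 4 markers of sinusoidal endothelium, 3 fell with CCl4 (summed level 45.6 to 65.7 CPM against 84.5 and 97.8 CPM in CIP) and with TAA, 2 with each of ANIT, MDA and ConA, and 1 with APAP, while 1 rose with each of TAA, ANIT, MDA, ConA and APAP and none was called with GAL. Of 4 stellate cell markers, 3 fell with MDA, 2 with ANIT and 1 with each of CCl4, TAA and ConA, while 2 rose with APAP and 1 with TAA. Of 5 cholangiocyte markers, 2 rose with each of APAP, TAA and ConA and 1 with each of MDA and ANIT, while 2 fell with ANIT. Among the B cell markers that could be tested, 3 of 3 rose with TAA, and 2 of 3 fell with ANIT and 2 of 2 with MDA. Of the T cell markers 1 fell with MDA, and no adipocyte marker was called. Ly6g, a defining neutrophil marker, was at 0 in all vehicle and ANIT mice. The share of mitochondrial genome transcripts was 9.43% to 14.5% with CCl4 and 9.54% to 20.1% with GAL, all above the CIP mice (5.11% and 9.24%), and 14.6% to 39.3% with ConA against 6.79% and 25.4% in CIV. It was 9.00% to 24.4% over the gavage compounds and 7.48% to 21.8% in Ctrl. The part of these cells and of this share in the changes described here was not tested.

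Acyl-CoA thioesterases release free fatty acids from coenzyme A, Acot2 in the mitochondrial matrix, Acot1 in the cytosol and Acot4 in peroxisomes. Acot2 was the only 1 of the 32 genes that rose with all 7 compounds. It stood at 0.963 to 2.30 (median 1.55) CPM in the gavage controls, at 1.52 and 0.728 CPM in the CIP mice and at 2.30 and 2.40 CPM in the CIV mice. Levels were 10.3 to 20.0 (median 14.4) CPM with CCl4, 5.19, 3.60, 3.81 and 6.51 with GAL, 3.14, 12.0, 10.9, 9.51 and 7.71 with TAA and 4.22 to 16.2 (median 7.70) with ConA. They were 0.834, 3.59, 2.51 and 6.89 CPM with ANIT, 1.93 to 10.1 (median 4.90) with APAP and 0.773 to 3.74 (median 3.20) with MDA. The CCl4, GAL, TAA and ConA mice all lay above their controls, whereas ANIT mouse 1 and MDA mouse 2 lay below all gavage controls, and APAP mice 2 and 4 and MDA mice 4 and 7 within their range. The change was 3.65 ± 0.40 (adjusted p = 1.34e-04) with CCl4, 2.49 ± 0.23 (adjusted p = 4.56e-08) with TAA and 0.79 ± 0.23 (adjusted p = 0.0125) with MDA. In between came GAL at 2.04 ± 0.45 (adjusted p = 0.0194), ConA at 1.80 ± 0.52 (adjusted p = 0.0218), APAP at 1.77 ± 0.29 (adjusted p = 1.45e-04) and ANIT at 1.13 ± 0.33 (adjusted p = 0.0156). The call was lost with ConA without either CIV mouse and with GAL without CIP mouse 8, and with ANIT it was lost without mouse 4. Acot2 shares 19.8% of its 31-base stretches with Acot1, so its estimates can hold reads of that neighbour.

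Acot1 rose with TAA, ConA and GAL and fell with APAP. It was at 15.1 to 32.8 (median 20.5) CPM in Ctrl, 23.5 and 12.6 CPM in CIP and 28.6 and 18.1 CPM in CIV. TAA mice reached 240.5, 202, 189, 119 and 152 CPM and ConA mice 90.6 to 336 (median 159) CPM, far above every control, and GAL mice 33.3, 39.8, 35.4 and 50.6 CPM, also without overlap. With ANIT the levels were 3.38, 29.9, 26.3 and 36.0 CPM, with APAP 6.91 to 24.2 (median 11.0), with MDA 5.63 to 30.2 (median 6.22) and with CCl4 12.4 to 21.2 (median 15.0), all overlapping the controls. The change was 3.09 ± 0.16 (adjusted p = 2.39e-11) with TAA and 3.01 ± 0.51 (adjusted p = 0.00159) with ConA. It was 1.12 ± 0.33 (adjusted p = 0.0474) with GAL, lost without CIP mouse 8 or GAL mouse 4, 7 or 8, and -0.66 ± 0.23 (adjusted p = 0.0304) with APAP, lost without APAP mouse 2, 4, 8 or 11. Acot1 and Acot2 thus did not move alike: with CCl4 Acot2 changed by 3.65 and Acot1 by -0.16 ± 0.25. Acot4 rose with ANIT, 0.88 ± 0.19 (adjusted p = 0.00223), and MDA, 0.72 ± 0.17 (adjusted p = 0.002), and was not called with the other 5 compounds, where its change lay between −0.37 and 0.38.

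**Figure D2:**
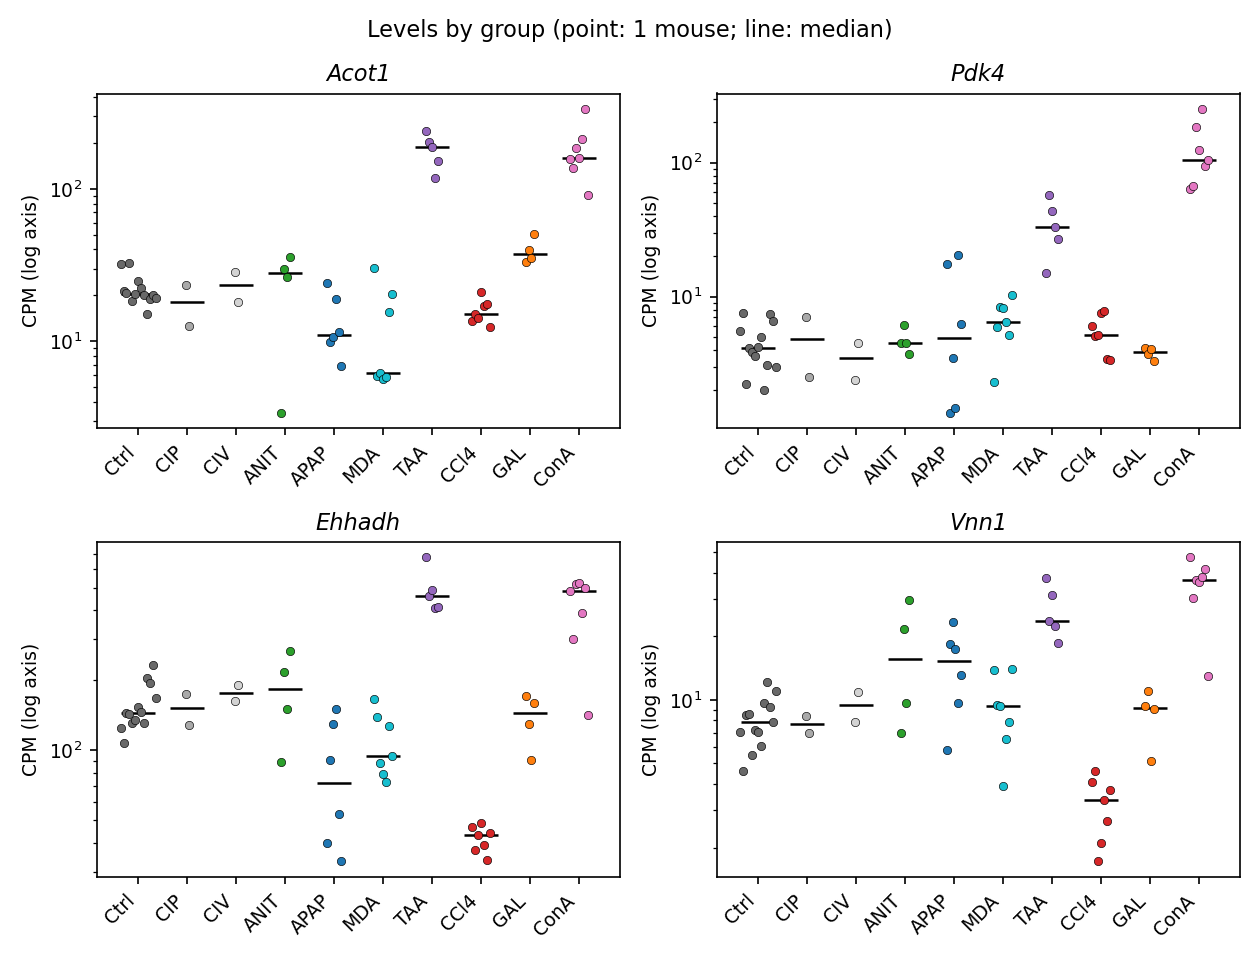
CPM of Acot1, Pdk4, Ehhadh and Vnn1 (log axes) by group, each point 1 mouse and each line the group median. For Acot1, Pdk4 and Vnn1 all TAA and ConA mice lie above all vehicle mice, and for Ehhadh ConA mouse 12, at 142 CPM, lies below both CIV mice.

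Activation and entry into mitochondria begin with Acsl1, the main long-chain acyl-CoA synthetase of liver, which fell with 6 of the 7 compounds. Control levels were 233 to 414 (median 321) CPM in Ctrl, 351 and 226 CPM in CIP and 313 and 291 CPM in CIV. GAL mice held 51.8, 26.8, 19.8 and 26.5 CPM and CCl4 mice 64.8 to 129 (median 80.0) CPM, all below both CIP mice. ANIT mice held 108, 174, 80.4 and 225 CPM, APAP mice 53.1 to 279.9 (median 134), MDA mice 74.9 to 275 (median 114), TAA mice 394, 146, 175, 116 and 128 and ConA mice 30.3 to 243 (median 163). TAA mouse 1, MDA mouse 1 and 1 APAP mouse lay within the control range, and the other mice of those groups below it. The change was -3.22 ± 0.39 (adjusted p = 0.00355) with GAL, -1.67 ± 0.26 (adjusted p = 0.00112) with CCl4 and -0.70 ± 0.23 (adjusted p = 0.0158) with TAA, the last lost without TAA mouse 3 or 8. With APAP it was -1.19 ± 0.26 (adjusted p = 0.00175), with ANIT -1.15 ± 0.21 (adjusted p = 6.98e-04) and with MDA -1.15 ± 0.20 (adjusted p = 1.42e-04). ConA gave -0.998 ± 0.52 (adjusted p = 0.164), not called against the 2 CIV mice although the groups did not overlap.

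Cpt1a, which makes acylcarnitines at the outer mitochondrial membrane and is regarded as the controlling step, rose with ANIT and fell with CCl4 and GAL. It was at 71.5 to 158 (median 118) CPM in Ctrl, 125 and 107 CPM in CIP and 94.1 and 112 CPM in CIV. ANIT mice had 118, 285, 189.8 and 452 CPM, of which mouse 1 lay within the controls. CCl4 mice had 34.6 to 52.1 (median 46.8) CPM and GAL mice 44.4, 12.4, 9.80 and 19.5 CPM, all below CIP. APAP mice had 94.1 to 186 (median 148) CPM, MDA mice 60.9 to 243 (median 99.2), TAA mice 149, 105, 79.2, 77.0 and 86.3 and ConA mice 63.5 to 157 (median 137). The first 3 of these groups overlapped their controls, and 6 ConA mice lay above and mouse 12 below both CIV mice. The change was 1.14 ± 0.23 (adjusted p = 0.00147) with ANIT, -1.35 ± 0.15 (adjusted p = 1.90e-04) with CCl4 and -2.44 ± 0.57 (adjusted p = 0.0228) with GAL, the last lost without either CIP mouse or without GAL mouse 4 or 8.

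Slc25a20, the carrier that exchanges acylcarnitine for carnitine across the inner membrane, was called with the same 3 compounds in the same directions. It was at 46.1 to 66.3 (median 55.3) CPM in Ctrl, 55.2 and 57.1 CPM in CIP and 64.7 and 54.2 CPM in CIV. Levels were 50.2, 107, 71.7 and 104 CPM with ANIT, 21.6 to 28.3 (median 24.5) with CCl4 and 23.2, 12.1, 11.5 and 16.3 with GAL. They were 32.4 to 64.4 (median 52.7) CPM with APAP, 36.4 to 80.8 (median 46.6) with MDA, 66.4, 54.4, 39.1, 33.1 and 39.4 with TAA and 23.2 to 49.6 (median 42.1) with ConA. Only the CCl4, GAL and ConA mice lay wholly apart from their controls, all of them below. The change was 0.60 ± 0.15 (adjusted p = 0.00582) with ANIT, -1.13 ± 0.11 (adjusted p = 5.76e-05) with CCl4 and -1.84 ± 0.29 (adjusted p = 0.00734) with GAL. With ConA it was -0.53 ± 0.26 (adjusted p = 0.136) and not called.

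Cpt2, which returns the chains to coenzyme A inside the matrix, fell with ConA by 1.68 on the log2 scale, with TAA by 0.82, with CCl4 by 0.92 and with APAP by 0.63. The change in the ConA mice, which were at 20.6 to 30.8 (median 23.5) CPM against 90.5 and 75.6 in CIV, had an adjusted p of 2.91e-04. Cpt1a thus was not called and Cpt2 fell with TAA and with ConA. Crat, carnitine acetyltransferase, rose with ANIT, 1.35 ± 0.20 (adjusted p = 1.18e-04), and with MDA, 1.14 ± 0.17 (adjusted p = 3.87e-05), and was not called with the other 5 compounds.

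**Figure D3:**
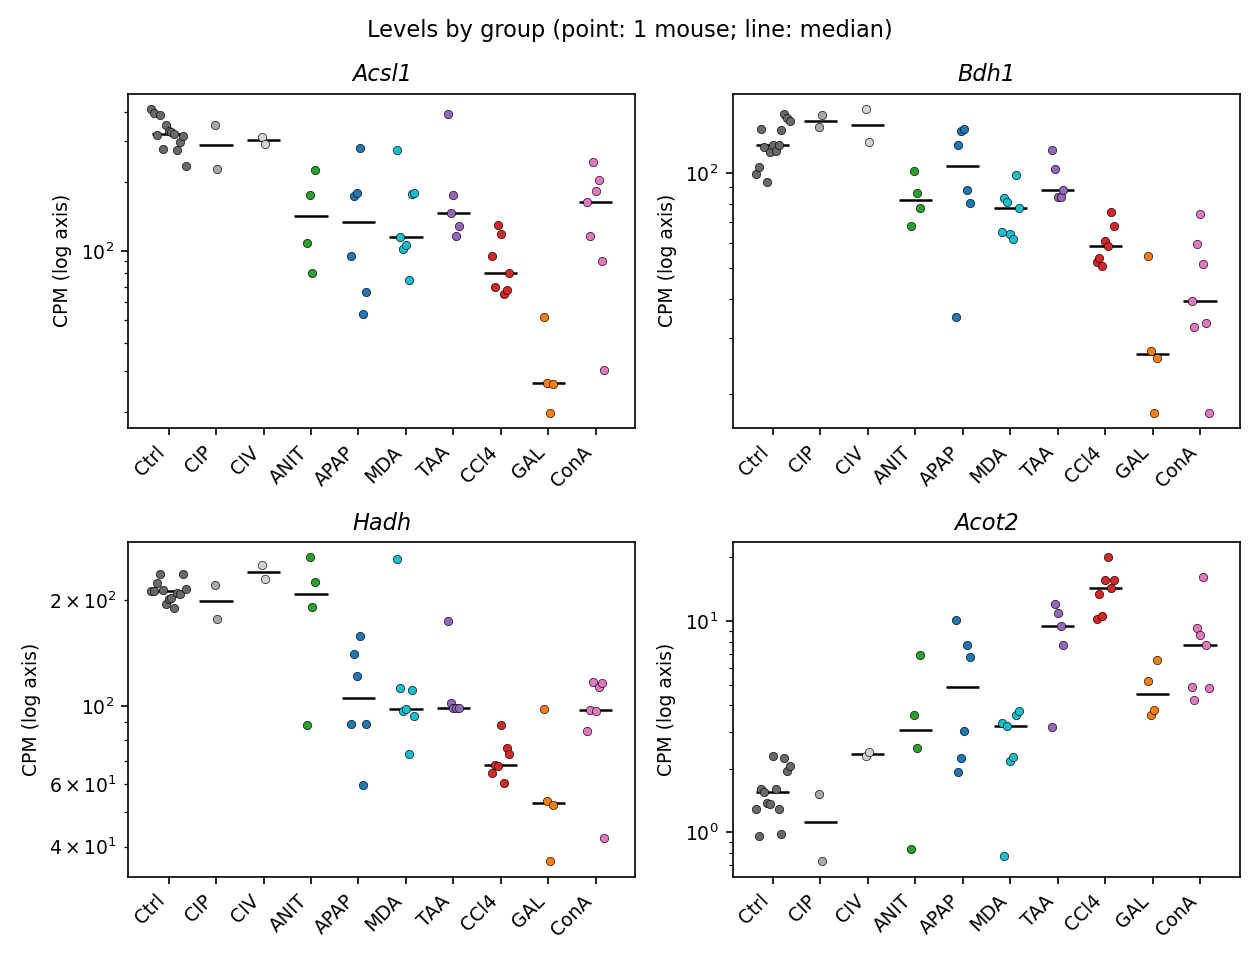
CPM of Acsl1, Bdh1, Hadh and Acot2 (log axes) by group, each point 1 mouse and each line the group median. Acsl1, Bdh1 and Hadh were called lower, and Acot2 higher, with at least 6 of the 7 compounds. TAA mouse 1 and MDA mouse 1 lie above the rest of their groups for Acsl1 and Hadh.

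In the mitochondrial spiral, 6 of 8 genes fell with CCl4, 7 with APAP, 4 with GAL, 4 with MDA, 2 with TAA and 2 with ConA. None of the 8 fell and 2 rose with ANIT, and 2 rose with TAA. Of all genes, 15.6% fell with CCl4, 14.6% with APAP, 15.7% with GAL, 16.4% with MDA, 24.0% with TAA and 17.3% with ConA. The shares that rose were 14.0% with ANIT and 26.4% with TAA, so the TAA and ConA counts are near those of all genes. Hadh, which oxidises short and medium chain hydroxyacyl-CoA, fell with 6 compounds. Its level was 189.5 to 237 (median 212) CPM in Ctrl, 220.2 and 177 CPM in CIP and 252 and 229.7 CPM in CIV. CCl4 mice had 60.8 to 88.7 (median 68.3) CPM, GAL mice 98.3, 54.0, 36.3 and 52.6, ConA mice 42.2 to 117 (median 97.7) and TAA mice 174, 102, 99.1, 98.8 and 98.8. APAP mice had 59.9 to 159 (median 106) CPM, MDA mice 73.2 to 262 (median 98.2) and ANIT mice 88.3, 265, 191 and 225. Mice given CCl4, GAL, ConA, TAA or APAP were all below their controls, MDA mouse 1 was above them and the other MDA mice below, and of the ANIT mice 1 lay below, 1 above and 2 within the range of Ctrl. The change was -1.44 ± 0.13 (adjusted p = 5.54e-05) with CCl4, -1.73 ± 0.37 (adjusted p = 0.0173) with GAL and -1.28 ± 0.30 (adjusted p = 0.0085) with ConA. It was -0.92 ± 0.14 (adjusted p = 8.28e-05) with APAP, -0.83 ± 0.13 (adjusted p = 2.27e-05) with TAA and -0.80 ± 0.18 (adjusted p = 0.0013) with MDA. The call with ConA was lost without CIV mouse 7, and that with GAL without either CIP mouse or GAL mouse 8.

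Acaa2, the thiolase of the spiral, and Acads, the short-chain acyl-CoA dehydrogenase, each fell with 5 compounds. Acaa2 changed by -1.89 ± 0.19 with GAL, -1.36 ± 0.10 with CCl4, -0.96 ± 0.28 with ConA, -0.73 ± 0.13 with APAP and -0.72 ± 0.14 with MDA. Acads changed by -1.36 ± 0.17 with GAL, -1.27 ± 0.12 with CCl4, -0.74 ± 0.13 with APAP, -0.62 ± 0.11 with MDA and -0.56 ± 0.17 with TAA. Acadvl, for very long chains, fell with CCl4, -0.82 ± 0.12, GAL, -0.68 ± 0.15, and APAP, -0.26 ± 0.093, and its change with GAL turned to 0.08 under library total scaling. Acadl, for long chains, was called higher with ANIT, 0.46 ± 0.10, and TAA, 0.26 ± 0.079, and with no compound lower against its route vehicle, although all CCl4 (41.1 to 62.2 CPM) and GAL mice (48.0 to 59.0 CPM) lay below the CIP mice (113 and 64.1 CPM).

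Acadm, the medium-chain dehydrogenase, rose with ANIT and TAA and fell with APAP. It was at 82.4 to 146 (median 121) CPM in Ctrl, 176 and 83.5 CPM in CIP and 125 and 175 CPM in CIV. ANIT mice had 97.6, 201, 181 and 205 CPM, TAA mice 167, 121, 189, 149.6 and 147 and APAP mice 72.1 to 106 (median 90.1). MDA mice had 108 to 246 (median 122) CPM, CCl4 mice 59.3 to 99.3 (median 89.7), GAL mice 103, 118, 105 and 109 and ConA mice 59.7 to 171 (median 149). Every group overlapped its controls, with 3 of 4 ANIT mice and 4 of 5 TAA mice above all Ctrl mice. The change was 0.55 ± 0.17 (adjusted p = 0.022) with ANIT, 0.45 ± 0.13 (adjusted p = 0.00804) with TAA and -0.37 ± 0.13 (adjusted p = 0.0296) with APAP. Within the mice numbered 1 to 4 the change with APAP was 0.01, and the call was lost without APAP mouse 1, 8 or 11. With ANIT the call was lost without mouse 2, 3 or 4.

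Hadha and Hadhb, whose shared promoter is printed above, encode the α and β subunits of 1 complex. Hadha fell with APAP, -0.51 ± 0.15, MDA, -0.45 ± 0.14, and CCl4, -0.57 ± 0.14. Hadhb fell with APAP, -0.33 ± 0.11, and CCl4, -0.61 ± 0.18. Across the 57 mice their log2 levels correlated at Pearson's r = 0.813, a description over mice that share groups and scaling. The ratio of Hadha to Hadhb ranged from 1.88 to 2.84 in Ctrl, and was 2.24 and 3.07 in the CIP mice and 1.85 and 2.71 in the CIV mice. It was 1.65 to 1.94 with GAL, all below CIP, and the widest ranges were 1.19 to 2.53 with APAP, 1.98 to 3.41 with ANIT and 1.59 to 3.13 with ConA.

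Auxiliary enzymes and electron transfer were counted in the same way. All 5 genes fell with APAP (14.6% of all genes lower), with CCl4 (15.6%) and with GAL (15.7%). With MDA 2 fell (16.4%) and with TAA 1 (24.0%), 1 rose with ANIT (14.0% higher), and none was called with ConA. Etfb, a subunit of the flavoprotein that takes electrons from the acyl-CoA dehydrogenases, changed by -2.38 ± 0.27 with GAL and -1.24 ± 0.15 with CCl4. Its partner Etfa changed by -1.10 ± 0.22 and -0.82 ± 0.25, and Etfdh, which passes the electrons to ubiquinone, by -1.71 ± 0.28 and -1.05 ± 0.19. Eci1, the isomerase for unsaturated chains, changed by -1.42 ± 0.23 with GAL, -1.29 ± 0.14 with CCl4 and -0.70 ± 0.14 with APAP.

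Decr1, the mitochondrial dienoyl-CoA reductase for unsaturated chains, rose with ANIT and fell with APAP, CCl4 and GAL. It stood at 38.5 to 60.7 (median 44.0) CPM in Ctrl, 50.1 and 45.8 CPM in CIP and 52.1 and 59.4 CPM in CIV. Levels were 36.0, 78.5, 60.2 and 75.6 CPM with ANIT, 21.1 to 37.4 (median 33.8) with APAP, 18.3 to 23.1 (median 20.0) with CCl4 and 31.5, 33.7, 27.8 and 32.1 with GAL. MDA mice had 28.3 to 58.1 (median 42.7) CPM, TAA mice 78.7, 43.3, 41.5, 34.0 and 44.1 and ConA mice 23.6 to 66.9 (median 45.8). APAP, CCl4 and GAL mice were all below their controls. The change was -1.19 ± 0.11 (adjusted p = 4.94e-05) with CCl4, -0.52 ± 0.11 (adjusted p = 0.00178) with APAP, -0.62 ± 0.16 (adjusted p = 0.0315) with GAL and 0.44 ± 0.15 (adjusted p = 0.0344) with ANIT. The call with ANIT was lost without mouse 2, 3 or 4, and the change with GAL was 0.14 under library total scaling.

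Ech1, an isomerase of dienoyl-CoA found in both organelles, was called with the same 4 compounds in the same directions as Decr1. Its level was 274 to 493 (median 338) CPM in Ctrl, 341 and 358 CPM in CIP and 426 and 287 CPM in CIV. CCl4 mice had 106 to 149 (median 134) CPM, GAL mice 209, 217, 176 and 203, APAP mice 196 to 315 (median 251) and ANIT mice 317, 705, 639.5 and 595. MDA mice had 249 to 578 (median 319.6) CPM, TAA mice 607, 396, 311, 289.6 and 360.4 and ConA mice 252 to 581 (median 435). Only the CCl4 and GAL mice lay wholly outside their controls. The change was -1.39 ± 0.13 (adjusted p = 5.10e-05) with CCl4, -0.80 ± 0.15 (adjusted p = 0.0112) with GAL, -0.47 ± 0.13 (adjusted p = 0.0109) with APAP and 0.64 ± 0.17 (adjusted p = 0.00863) with ANIT. The call with ANIT was lost without mouse 2, and that with GAL without either CIP mouse.

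Among the 6 peroxisomal enzymes all 6 fell with CCl4 (15.6% of all genes lower), 4 with GAL (15.7%) and 5 with APAP (14.6%). APAP raised the other, Eci2 (17.3% of all genes higher). TAA raised 2 and lowered 1 (26.4% of all genes higher and 24.0% lower), and ConA raised 1 and lowered 2 (16.8% and 17.3%). MDA raised Eci2 and lowered Ehhadh and Acaa1b (17.4% and 16.4%), and ANIT raised Acaa1a and Eci2 and lowered none (14.0% and 14.2%). Ehhadh, the bifunctional enzyme for straight chains, rose with TAA and ConA and fell with CCl4, APAP and MDA. It was at 108 to 232 (median 144) CPM in Ctrl, 175 and 128 CPM in CIP and 163 and 191 CPM in CIV. TAA mice reached 675, 462, 487, 408 and 413 CPM, all above every control, and ConA mice 142 to 525 (median 483) CPM, of which mouse 12 lay below both CIV mice. CCl4 mice fell to 33.6 to 48.7 (median 43.2) CPM, all below CIP. Levels were 89.4, 216, 151 and 267 CPM with ANIT, 33.3 to 150.1 (median 72.2) with APAP, 73.0 to 166 (median 94.1) with MDA and 170.5, 129, 91.2 and 159 with GAL, overlapping the controls. The change was 1.71 ± 0.16 (adjusted p = 3.67e-08) with TAA, -1.82 ± 0.15 (adjusted p = 2.85e-05) with CCl4 and 1.26 ± 0.44 (adjusted p = 0.0478) with ConA. The call with ConA was lost without either CIV mouse or without ConA mouse 2, 3, 4, 5, 8 or 11, and against all 17 vehicle mice the change was 1.48 ± 0.17 (adjusted p = 2.19e-08). With APAP it was -0.88 ± 0.26 (adjusted p = 0.0154) and with MDA -0.50 ± 0.17 (adjusted p = 0.0266), the latter lost without MDA mouse 3, 4, 7 or 12.

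Hsd17b4, the bifunctional enzyme that also handles branched chains, moved the other way from Ehhadh with ConA, where it changed by -1.58 ± 0.38 (adjusted p = 0.00939), and it fell with APAP, CCl4 and GAL as well. Acaa1a and Acaa1b, the peroxisomal thiolases, share 40.0% of the 31-base stretches of Acaa1b, and the split of reads between them is uncertain. Acaa1a rose with ANIT and fell with APAP, CCl4 and GAL. It was at 112 to 208 (median 155) CPM in Ctrl, 135 and 175 CPM in CIP and 188 and 97.4 CPM in CIV. Levels were 94.7, 325, 247 and 371 CPM with ANIT, 56.6 to 129 (median 93.5) with APAP, 58.6 to 84.0 (median 62.1) with CCl4 and 75.4, 55.3, 47.7 and 46.8 with GAL. They were 74.5 to 235 (median 109) CPM with MDA, 228, 121, 108, 106 and 108 with TAA and 141 to 358 (median 264) with ConA. The CCl4 and GAL mice were all below CIP, and the other groups overlapped their controls. The change was 0.79 ± 0.22 (adjusted p = 0.0128) with ANIT, lost without ANIT mouse 2 or 4, and -0.70 ± 0.16 (adjusted p = 0.00291) with APAP. It was -1.21 ± 0.14 (adjusted p = 2.34e-04) with CCl4 and -1.46 ± 0.23 (adjusted p = 0.00677) with GAL, the latter lost without CIP mouse 8. Acaa1b fell with CCl4, -2.30 ± 0.18 (adjusted p = 2.42e-05), MDA, -1.24 ± 0.21 (adjusted p = 1.25e-04), and APAP, -1.17 ± 0.33 (adjusted p = 0.0101), and changed by -0.78 ± 0.29 with ANIT without a call.

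Eci2, an isomerase for unsaturated chains counted here as peroxisomal, rose with all 4 gavage compounds and fell with both intraperitoneal ones. It was at 89.1 to 126 (median 102) CPM in Ctrl, 108 and 90.8 CPM in CIP and 99.3 and 148 CPM in CIV. Gavage compounds gave 134, 278, 218 and 246 CPM with ANIT, 103 to 254 (median 150.4) with APAP, 100.4 to 221 (median 184) with MDA and 182, 146, 117, 95.8 and 119 with TAA. CCl4 mice had 45.1 to 55.3 (median 49.3) CPM, GAL mice 56.0, 30.4, 29.9 and 43.9 and ConA mice 87.8 to 179.5 (median 144). ANIT mice were all above Ctrl, and CCl4 and GAL mice all below CIP. The change was 1.06 ± 0.14 (adjusted p = 3.23e-05) with ANIT, 0.63 ± 0.15 (adjusted p = 0.00301) with APAP, 0.61 ± 0.13 (adjusted p = 0.00109) with MDA and 0.38 ± 0.13 (adjusted p = 0.0163) with TAA, the last lost without TAA mouse 1. It was -0.97 ± 0.11 (adjusted p = 2.11e-04) with CCl4 and -1.32 ± 0.28 (adjusted p = 0.0178) with GAL, the latter lost without either CIP mouse. Decr2, the peroxisomal dienoyl-CoA reductase, fell with 5 compounds, by -2.80 ± 0.41 with GAL, -1.88 ± 0.11 with CCl4, -1.19 ± 0.25 with ConA, -0.60 ± 0.20 with APAP and -0.41 ± 0.15 with TAA.

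The 2 arms were set against each other within each mouse, as the mean log2(CPM + 1) of the 16 mitochondrial genes minus that of the 6 peroxisomal genes, in which library scaling cancels apart from the added 1. It was −0.30 to 0.01 in Ctrl, −0.22 and −0.09 in CIP, and −0.18 and −0.09 in CIV. TAA mice lay between −0.66 and −0.48 and ConA mice between −0.89 and −0.59, all below every vehicle mouse, with the peroxisomal mean relatively higher. CCl4 mice lay between 0.24 and 0.46, all above every vehicle mouse, with the mitochondrial genes relatively higher. ANIT (−0.23 to −0.03), MDA (−0.30 to −0.01) and GAL mice (−0.26 to −0.06) stayed within or near the vehicle range, and APAP mice spread from −0.32 to 0.70. The difference from the route vehicle was −0.43 with TAA (SD of the TAA mice 0.07, n = 5), −0.56 with ConA (SD 0.10, n = 7) and 0.51 with CCl4 (SD 0.08, n = 7). With APAP it was 0.18 (SD 0.37, n = 6), and 0.047 without APAP mouse 11. Without Acaa1a and Acaa1b it became −0.11 with ConA, −0.54 with TAA and 0.39 with CCl4. The same removal moved it from −0.017 to −0.27 with MDA, from 0.00017 to −0.15 with ANIT, from 0.029 to 0.16 with GAL and from 0.18 to −0.011 with APAP, so that MDA and ANIT then lay further below 0 than ConA. Single genes weighed unevenly. Among the peroxisomal genes called with TAA, Ehhadh changed by 1.71, Eci2 by 0.38 and Decr2 by −0.41. With ConA, Ehhadh changed by 1.26, Hsd17b4 by −1.58 and Decr2 by −1.19. The mitochondrial mean was 6.99 with TAA against 7.24 in Ctrl, and 6.78 with ConA against 7.32 in CIV. The arms were not compared without Ehhadh, and no test was made over the arm values.

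**Figure D4:**
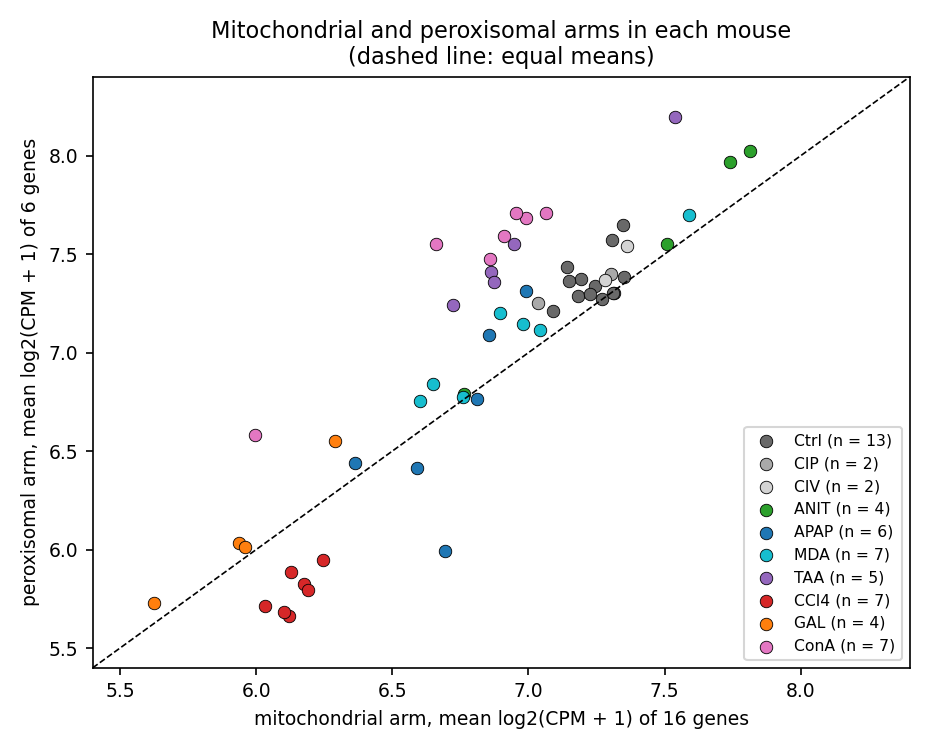
Mean log2(CPM + 1) of the mitochondrial arm and of the peroxisomal arm in each of the 57 mice, coloured by group. CCl4 and GAL mice are low in both arms, and TAA and ConA mice lie to the peroxisomal side of the vehicle mice.

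Ketone bodies are made in liver mitochondria from acetyl-CoA, and Bdh1 reduces acetoacetate to β-hydroxybutyrate. Bdh1 fell with 6 compounds. It was at 93.4 to 154 (median 122) CPM in Ctrl, 139.8 and 152 CPM in CIP and 159.7 and 125 CPM in CIV. GAL mice had 54.5, 27.4, 17.4 and 26.1 CPM, ConA mice 17.4 to 74.4 (median 39.5) and CCl4 mice 50.7 to 75.1 (median 58.9), all below their controls. Levels were 68.0, 102, 86.4 and 77.8 CPM with ANIT, 35.1 to 138 (median 105) with APAP, 61.7 to 98.9 (median 77.5) with MDA and 118, 103, 83.9, 84.0 and 88.2 with TAA, overlapping Ctrl. The change was -2.22 ± 0.40 (adjusted p = 0.011) with GAL, -1.65 ± 0.38 (adjusted p = 0.00831) with ConA and -1.25 ± 0.15 (adjusted p = 2.15e-04) with CCl4. It was -0.71 ± 0.11 (adjusted p = 6.00e-05) with MDA, -0.57 ± 0.14 (adjusted p = 0.0045) with ANIT and -0.33 ± 0.13 (adjusted p = 0.0384) with TAA, and with APAP it was -0.29 ± 0.19 (adjusted p = 0.275), not called. The call with GAL was lost without either CIP mouse, that with ConA without CIV mouse 7, and that with TAA without TAA mouse 3, 6, 7 or 8.

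The other ketone body genes did not follow Bdh1 throughout. Acat1, the mitochondrial acetoacetyl-CoA thiolase, fell with MDA, TAA, CCl4, GAL and ConA, by -2.18 ± 0.27 with GAL. Bdh2, a cytosolic relative of Bdh1, fell with every compound but CCl4, by -3.02 ± 0.45 with ConA and -2.80 ± 0.43 with GAL. Slc16a1, a carrier that exports ketone bodies and lactate, rose with APAP, TAA, CCl4 and ConA. Oxct1, which hepatocytes use little since ketone bodies are burnt elsewhere, was called with no compound against the vehicle of its route. Against all vehicle mice together, Oxct1 was called higher with GAL and lower with MDA and ConA. In that comparison Bdh2 was also called lower with CCl4, and Slc16a1 was also called higher with GAL.

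**Figure D5:**
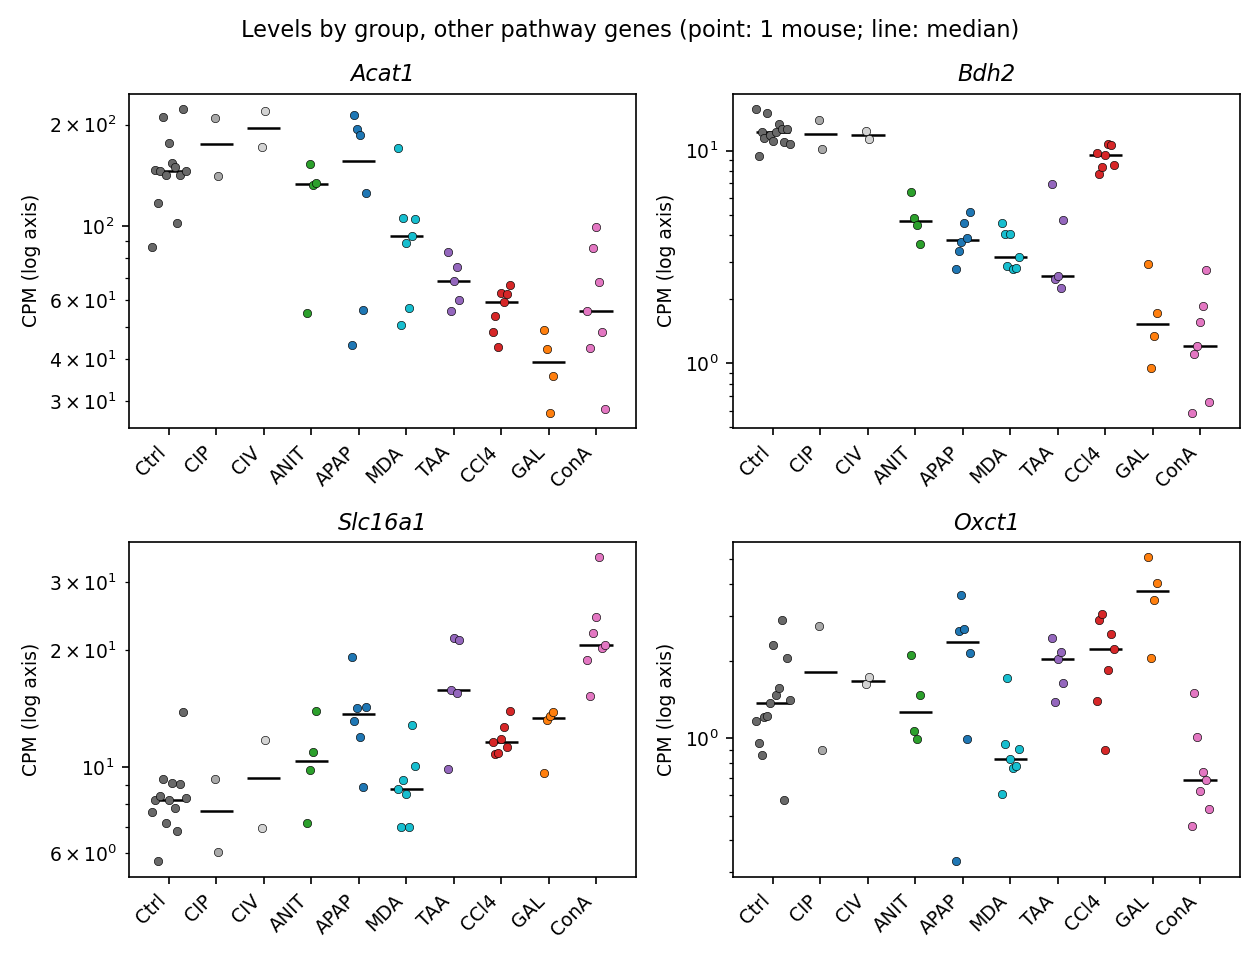
CPM of the ketone body genes Acat1, Bdh2, Slc16a1 and Oxct1 (log axes) by group, each point 1 mouse and each line the group median. For Bdh2 all GAL and ConA mice lie below all vehicle mice, while CCl4 mice lie near them.

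Ppara itself rose with TAA and fell with CCl4. It was at 44.5 to 80.9 (median 58.7) CPM in Ctrl, 62.4 and 58.1 CPM in CIP and 63.4 and 58.9 CPM in CIV. CCl4 mice had 14.9 to 32.2 (median 26.6) CPM and GAL mice 43.3, 26.2, 17.1 and 28.9, all below CIP, and ConA mice 69.1 to 167 (median 106), all above CIV. Levels were 85.0, 88.7, 69.9, 78.2 and 79.2 CPM with TAA, 37.1, 100.3, 64.6 and 114 with ANIT, 56.4 to 92.2 (median 69.9) with APAP and 27.2 to 70.7 (median 46.4) with MDA, overlapping Ctrl. The change was -1.16 ± 0.22 (adjusted p = 0.00288) with CCl4 and 0.45 ± 0.13 (adjusted p = 0.00848) with TAA. With GAL it was -1.07 ± 0.33 (adjusted p = 0.0533) and with ConA 0.96 ± 0.36 (adjusted p = 0.0612), neither of them called.

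Pdk4, the kinase that shuts off pyruvate dehydrogenase when fat is burnt, rose with TAA and ConA. It was at 1.99 to 7.52 (median 4.16) CPM in Ctrl, 7.07 and 2.49 CPM in CIP and 2.39 and 4.50 CPM in CIV. ConA mice had 63.7 to 253 (median 105) CPM and TAA mice 14.9, 57.1, 43.2, 33.3 and 26.8, all above every vehicle mouse. The other groups had 4.53, 6.16, 4.46 and 3.70 CPM with ANIT, 1.35 to 20.5 (median 4.86) with APAP, 2.29 to 10.3 (median 6.42) with MDA, 3.34 to 7.83 (median 5.14) with CCl4 and 4.13, 3.74, 4.03 and 3.30 with GAL, overlapping their controls. The change was 5.26 ± 0.70 (adjusted p = 4.30e-04) with ConA, the largest rise among the 32 genes, and 3.02 ± 0.28 (adjusted p = 4.41e-08) with TAA. Both calls held in every alternative run.

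Vnn1, a pantetheinase that recycles the vitamin moiety of coenzyme A, rose with ConA, TAA, ANIT and APAP and fell with CCl4. It was at 4.61 to 12.2 (median 7.87) CPM in Ctrl, 8.38 and 6.94 CPM in CIP and 7.90 and 10.9 CPM in CIV. ConA mice had 13.0 to 47.4 (median 36.9) CPM and TAA mice 37.8, 23.7, 31.5, 22.5 and 18.5, all above their controls, and CCl4 mice 1.72 to 4.61 (median 3.36), all below CIP. Levels were 6.99, 21.7, 9.66 and 29.7 CPM with ANIT, 5.80 to 23.4 (median 15.3) with APAP, 3.90 to 14.0 (median 9.36) with MDA and 9.32, 11.0, 5.16 and 9.06 with GAL. ANIT mice 2 and 4, 4 of 6 APAP mice and MDA mice 1 and 12 lay above all gavage controls, MDA mouse 4 lay below them and the others within their range. Of the GAL mice, 3 lay above both CIP mice and mouse 7 below both. The change was 1.94 ± 0.43 (adjusted p = 0.00674) with ConA, 1.79 ± 0.19 (adjusted p = 2.79e-07) with TAA and -1.23 ± 0.34 (adjusted p = 0.0213) with CCl4. With ANIT it was 1.09 ± 0.28 (adjusted p = 0.00764) and with APAP 0.89 ± 0.22 (adjusted p = 0.00489). The call with CCl4 was lost without either CIP mouse, that with ConA without CIV mouse 7 and that with ANIT without mouse 4.

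Other genes of the pathway were followed as a list of 52 outside the 32. Of these, 34 fell and 1 rose with GAL (15.7% and 12.8% of all genes), 27 fell and 6 rose with CCl4 (15.6% and 18.0%), and 24 fell and 6 rose with APAP (14.6% and 17.3%). With TAA 22 fell and 11 rose (24.0% and 26.4%), with ConA 18 fell and 7 rose (17.3% and 16.8%), with MDA 17 fell and 6 rose (16.4% and 17.4%), and with ANIT 11 fell and 11 rose (14.2% and 14.0%). Amacr and Pecr, peroxisomal enzymes of branched and unsaturated chains, Acacb, which makes the malonyl-CoA that inhibits Cpt1a, and Pdk2 were among those that fell with all 7 compounds. Acacb changed by -4.33 ± 0.45 with GAL and -1.82 ± 0.31 with ANIT. Abcd3, Hacl1, Acad10, Acsl5, Pdk1 and Bdh2 fell with 6 compounds, and Acox3, Slc27a5, Fabp1, Ppard and Acat1 with 5. Acot9, a mitochondrial thioesterase like Acot2, rose with 6 compounds, by 3.07 ± 0.23 with CCl4.

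Fgf21, a fasting hormone that PPAR alpha can induce, rose with 5 compounds against their route vehicles. Against all 17 vehicle mice Fgf21 was also called higher with ConA and lower with GAL. ANIT mice had 28.1, 94.4, 249.9 and 52.5 CPM and MDA mice 5.23 to 90.4 (median 19.5), against 0.168 to 3.17 (median 0.448) in Ctrl. The change was 7.17 ± 0.57 (adjusted p = 2.94e-07) with ANIT, 5.31 ± 0.53 (adjusted p = 2.75e-07) with MDA, 3.65 ± 0.46 (adjusted p = 1.97e-06) with TAA and 2.73 ± 0.45 (adjusted p = 1.48e-04) with APAP, and against CIP it was 2.27 ± 0.40 (adjusted p = 0.00218) with CCl4. All mice of these 5 groups lay above all their controls. Ppargc1a, a coactivator of PPAR alpha, rose with MDA, 0.82 ± 0.28 (adjusted p = 0.0296), a call that was lost against all 17 vehicle mice, 0.63 ± 0.31 (adjusted p = 0.125), and it fell with TAA, -1.11 ± 0.40 (adjusted p = 0.026), and GAL, -2.67 ± 0.66 (adjusted p = 0.0273).

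The vehicle groups were compared with each other for the 32 genes. None was called between CIP and Ctrl or between CIV and Ctrl by edgeR's quasi-likelihood test, where 0.0131% of all genes were called, all higher, in the first and 0.0263% in the second (0.0197% higher and 0.00658% lower). At an unadjusted p under 0.05 the number was 0 in both (3.75% and 3.82% of all genes), and with DESeq2 it was 0 in both (1.01% and 0.528% of all genes called). With 2 saline mice in each group, changes of moderate size would often be missed, and the vehicles are not shown to be alike.

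Against all 17 vehicle mice together, the counts rose for the compounds whose own vehicle group held 2 mice. ConA then raised 12 and lowered 11 of the 32 genes (68.0% of all genes called, 34.3% higher and 33.7% lower), GAL raised 2 and lowered 23 (52.5% of all genes called, 25.1% higher and 27.5% lower), and CCl4 raised 1 and lowered 28 (53.4% of all genes called, 26.2% higher and 27.2% lower). For the gavage compounds the counts were 14 higher and 3 lower with ANIT (28.0% of all genes called, 13.5% higher and 14.5% lower), and 4 and 20 with APAP (33.4% of all genes called, 18.1% higher and 15.3% lower). They were 4 and 11 with MDA (34.2% of all genes called, 17.2% higher and 17.1% lower) and 9 and 7 with TAA (49.7% of all genes called, 25.2% higher and 24.5% lower). No gene turned its called direction, and of the calls against route vehicles the 1 that was lost was Hadhb with APAP. Others were called only against all vehicles, such as Ppara with APAP, GAL and ConA, Acadl with CCl4, GAL and ConA, Acsl1 with ConA and Acot1 with MDA and CCl4. Routes differ between the groups in these comparisons.

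Compounds that share a control group were also set directly against each other, in 7 pairs. With ANIT, Acadm, Decr1, Eci1, Ech1, Hsd17b4 and Acaa1a were higher than with APAP, 6 genes and none lower (5.98% of all genes called, 2.35% higher), and all 6 calls were lost under library total scaling. Against TAA, ANIT mice had more Cpt1a, Cpt2, Crat and Acot4 and less Ehhadh, Acot1 and Pdk4 (26.2% of all genes called). MDA mice differed from TAA mice in 10 genes (30.0% of all genes called), with less Acot1, -3.85 ± 0.46, Pdk4, -2.43 ± 0.35, and Ehhadh, -2.20 ± 0.23. APAP mice had less Acot1, -3.73 ± 0.34, Ehhadh, -2.57 ± 0.39, and Acadm than TAA mice (2.62% called), and less Hsd17b4 than MDA mice (9.43% called). Between ANIT and MDA none of the 32 genes and none of all genes were called by edgeR, while 10 of the 32 had an unadjusted p under 0.05 (9.38% of all genes) and DESeq2 called 0 of the 32 and 183 of 15092 genes in all.

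CCl4 and GAL, both of which lowered most of the 32 genes, differed in 18 of them (42.5% of all genes called). With CCl4, Acaa1b, -1.87 ± 0.15, Ehhadh, -1.77 ± 0.15, Vnn1, -1.49 ± 0.28, and Acot1, -1.38 ± 0.16, were lower than with GAL. Acot2, 1.53 ± 0.23, Acsl1, 1.46 ± 0.28, Etfb, 1.04 ± 0.18, and Cpt1a, 1.001 ± 0.34, were higher. In the 18, 8 genes were lower with CCl4 and 10 were higher.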

How the data were processed

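Liver RNA of 57 mice was measured. The authors' table gives estimated counts for 54307 genes, not rounded, made with Salmon 1.6.0 and R 4.1.3 on GRCm39, per the submitters' processing notes. How strand was counted is not given in the sources used here. Among 4208 low genes of 1 transcript, longer transcripts had smaller minimum values above 0 (rho −0.944), so the estimates look corrected for length, although no label says so. No interval that needs whole reads was computed. Symbols were taken from GENCODE M21, in which 51482 IDs were found and 2825 were not. Estimates were rounded and tested two-sided with edgeR 4.0.16 (limma 3.58.1, R 4.3.3): TMM, filterByExpr and the quasi-likelihood test on the groups of each comparison, with no covariate. SE is the log2 fold change over the square root of F. DESeq2 1.42.0 was 1 of the alternatives. Genes and lists were chosen with earlier results of these data known. Values by mouse are given for genes called in 1 direction with at least 6 compounds or in opposite directions. Pdk4 was added to them after its values were seen. Other pathway genes are named if called with at least 5 compounds, together with Fgf21 and Ppargc1a. Slc16a1 and Oxct1 were added after their values were seen. Results for some genes are not reported here.

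The test was tried on 2 sets of simulated counts, each with 200 genes changed, of which 185 to 199 per comparison passed the filter on low counts again and are the base of the percentages. The first used each gene's own dispersion and log2 changes of 1 and 2. Changes of 1 were recovered at 44.1% (ANIT) to 67.4% (MDA) for the gavage compounds, but at 4.76% for CCl4, 0% for GAL and 1.15% for ConA, whose control groups hold 2 mice. Changes of 2 were recovered at 53.3% for CCl4, 1.01% for GAL and 12.3% for ConA. The second and easier set, with trended dispersions and changes of 2 and 3, was added after that outcome was seen, and the test was left as it was. There, changes of 2 were recovered at 53.9% for CCl4, 43.3% for GAL and 44.7% for ConA. In the data 33.5% of all genes were called with CCl4, 28.5% with GAL and 34.2% with ConA, far more than the 200 simulated. The adjustment over all genes is then less strict, so these percentages are not the recovery in the data. A gene not called with those 3 compounds may still have changed.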

Additional observations from a re-analysis of the deposited data

Results flagged for a closer look

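A mouse far from the others of its group was found in 24 of 224 sets of values (1 gene in 1 compound group of 4 to 7 mice), by Dixon's gap test at its 95% limit, where chance alone gives about 1 in 20. Most lie in 3 mice. Levels are given against the range of the other mice of the group.

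TAA mouse 1 stood above the other 4 for 9 genes: Acsl1 at 394 CPM against 116 to 175, Hadha at 455 CPM against 235 to 271, Hadhb at 220.3 CPM against 112 to 121, Hadh at 174 CPM against 98.8 to 102 and Decr1 at 78.7 CPM against 34.0 to 44.1. In the peroxisomal and auxiliary groups it had Eci1 at 253 CPM against 104 to 137, Hsd17b4 at 222 CPM against 118 to 139, Acaa1a at 228 CPM against 106 to 121 and Acaa1b at 1364 CPM against 586 to 784. These genes span both organelles.

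MDA mouse 1 stood above the other 6 for 5 genes, with Acadvl at 326 CPM against 183 to 229, Acadm at 246 CPM against 108 to 137, Hadh at 262 CPM against 73.2 to 112, Hsd17b4 at 270.4 CPM against 126 to 178 and Acaa1a at 235 CPM against 74.5 to 116. ConA mouse 12 stood below the other 6 for 4 mitochondrial genes, with Cpt1a at 63.5 CPM against 132 to 157, Acads at 57.0 CPM against 88.0 to 111, Hadh at 42.2 CPM against 85.1 to 117 and Acaa2 at 205 CPM against 373 to 470.2.

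The other 6 sets each held a different mouse. CCl4 mouse 5 had the lowest Ppara at 14.9 CPM against 25.0 to 32.2, and GAL mouse 7 the lowest Hadhb at 73.8 CPM against 100.4 to 104. GAL mouse 4 had the highest Acadl at 59.0 CPM against 48.0 to 48.3, and ConA mouse 8 the highest Acot2 at 16.2 CPM against 4.22 to 9.26. ANIT mouse 4 had the highest Acot4 at 14.6 CPM against 8.05 to 8.74, and TAA mouse 8 the lowest Acot4 at 2.50 CPM against 4.15 to 4.62. What set these mice apart was not tested.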

How the results depend on the processing

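Of 3096 values of single genes under the alternatives, 2697 stayed on their side of the threshold, the called ones in the same direction. Another 297 lost the call, 99 gained it and 3 called ones changed direction. Where a gene was called in neither fit, its direction was not compared. Of 125 calls against route vehicles, 40 were kept in every alternative. The changes of direction were Acadm with APAP in mice numbered 1 to 4 (0.0094), and under library total scaling Acadvl (0.077) and Decr1 (0.14) with GAL. Among the 32 genes, library total scaling called 7 with ANIT (24.7% of all genes called in the same fit), 8 with GAL (41.0%) and 9 with ANIT against all vehicles (26.4%). Mice numbered 1 to 4 gave 6 with ANIT (13.7% of all genes), 6 with APAP (6.28%), 4 with MDA (10.4%) and 7 with TAA (19.4%), mice numbered above 4 gave 14 with APAP (20.2%), and 1 fit over all groups gave 9 with TAA (41.1%). The runs on numbered mice use fewer animals, and the fit over all groups shares 1 estimate of the spread.

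With the replicate number as a block, on the mice whose numbers occur in both groups, 4 genes were called with ANIT (8.96% of all genes), 1 with APAP (1.85%), 13 with MDA (20.1%), 11 with TAA (36.2%) and 17 with GAL (27.5%). In no comparison with 2 or more same-numbered pairs were all pairs correlated above 0.1, so the numbers are not taken to pair the mice. With TAA, 3 of 4 pairs were (0.27, 0.11 and 0.15, against 0.0074 for the other). CCl4 and ConA share 1 number with their vehicles (r = −0.15 and 0.13), and no block could be fitted. Leaving out 1 mouse at a time gave 9 to 22 calls with ANIT (17.5% to 27.4% of all genes called in these fits), 19 to 25 with APAP (27.2% to 32.4%), 12 to 22 with MDA (28.8% to 34.8%), 12 to 22 with TAA (45.2% to 50.9%), 21 to 27 with CCl4 (18.0% to 36.2%), 9 to 22 with GAL (9.49% to 42.5%) and 5 to 13 with ConA (23.9% to 36.1%).

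Between compounds, DESeq2 called 11 genes for ANIT against APAP (13.7% of all genes), 11 for ANIT against TAA (26.1%), 4 for APAP against MDA (13.7%) and 5 for APAP against TAA (8.02%). For ANIT against APAP library total scaling called 0 (10.4% of all genes), a mean CPM of at least 5 called 3 (6.52%) and no filter on low values called 1 (1.37%), and for APAP against MDA each of these 3 called 0 (7.39%, 9.86% and 3.66%). Without Acaa1a and Acaa1b the arm difference was −0.15 with ANIT, −0.27 with MDA, −0.54 with TAA, 0.39 with CCl4, 0.16 with GAL and −0.11 with ConA. The cause of the changes under scaling and filters was not tested. The 2-mouse vehicle groups limit what could be called with CCl4, GAL and ConA.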
